A study of Mus musculus with 19 samples.

Results

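Distal STRA8-FLAG regions are places in the mouse genome where FLAG ChIP-seq of testes carrying a tagged STRA8 protein gave a summit more than 1 kb from the transcription start site (TSS) of every protein-coding transcript and more than 1 kb from any summit of untagged testes. They were chosen from the summit calls themselves, by position, and summits of different libraries within 200 bp were merged. There were 1120 such regions among 6861 regions of the 3 FLAG/FLAG libraries, against 5422 regions at promoters (within 1 kb of a protein-coding TSS). In the text, "distal" refers only to this rule, and "shared" regions are the 283 that had a summit in 2 or 3 of the FLAG/FLAG libraries.

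The ChIP-seq groups were 3 Stra8 FLAG/FLAG mice, whose N-terminal FLAG sequence was knocked into both copies of Stra8, and 3 Stra8 +/+ (wild-type) mice, which have no FLAG epitope. Each ChIP library came from a single mouse and was called against the input chromatin of the same mouse. The tag marks only the long form of the protein, and the testes were not sorted, so that the chromatin came from a mixture of preleptotene and other cells. Both ChIP groups were on C57BL/6 with a small share of 129. The RNA-seq groups were preleptotene cells sorted from 3 Stra8-deficient (Stra8 knock-out) samples, and from 2 low-STRA8 and 2 high-STRA8 samples of Stra8 heterozygous mice, all on C57BL/6. The sort used a tdTomato reporter at Rosa26 switched on by Ddx4-Cre in the germ line, and the study divided the heterozygous testes by STRA8 staining. Nothing in the labels says that the RNA samples of a group were separate mice, so the p-values measure the spread between these samples. All mice were given WIN18,446, an inhibitor of retinoic acid synthesis, daily from postnatal day 2 to 8 and retinoic acid on day 9, and testes were collected 6.75 days later. Nothing in the sources used here gives the sequencing depth of the ChIP libraries, so the sensitivity of each is unknown.

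STRA8 is induced by retinoic acid in germ cells about to enter meiosis and is required for the premeiotic-to-meiotic transition. Most factors that bind DNA at promoters also bind elsewhere, at enhancers, at promoters of noncoding RNAs and at promoters that an annotation does not list. A summit away from a known TSS can belong to any of these.

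The sequences below show what lay under the distal regions on which the results turn, as the 100 bases centred on each region in the RefSeq GRCm38.p6 assembly (mm10), forward strand. Capitals mark matches to CNCCTCAG on either strand, the motif that the study's authors found at promoter summits of pooled reads from these FLAG/FLAG samples. Of the 10 highest-scoring regions shared by 3 libraries 5 held a match, and the first 4 sequences are from these.

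Tsc22d3, chrX:140599364-140599463: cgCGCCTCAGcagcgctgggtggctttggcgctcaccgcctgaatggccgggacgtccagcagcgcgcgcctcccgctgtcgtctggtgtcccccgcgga
Igf2bp1, chr11:95991317-95991416: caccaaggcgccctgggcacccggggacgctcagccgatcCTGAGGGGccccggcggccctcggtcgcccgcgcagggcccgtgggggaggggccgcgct
Shf, chr2:122348622-122348721: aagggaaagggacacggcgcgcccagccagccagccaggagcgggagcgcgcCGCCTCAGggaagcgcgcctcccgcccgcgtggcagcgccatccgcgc
Atf3, chr1:191224538-191224637: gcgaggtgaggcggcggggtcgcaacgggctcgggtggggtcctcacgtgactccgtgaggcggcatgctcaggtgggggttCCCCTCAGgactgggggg

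Each name is the nearest protein-coding gene by TSS and not a known target. The next 3 held the most matches of all shared regions, 7, 7 and 5, and are short tandem repeats in which the motif recurs.

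Efnb2, chr8:8380489-8380588: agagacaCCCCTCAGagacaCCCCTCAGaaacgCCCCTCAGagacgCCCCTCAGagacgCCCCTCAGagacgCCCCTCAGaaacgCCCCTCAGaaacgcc
Fam92b, chr8:120173569-120173668: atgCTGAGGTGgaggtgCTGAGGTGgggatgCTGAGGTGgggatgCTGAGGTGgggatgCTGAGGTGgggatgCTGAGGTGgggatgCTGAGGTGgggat
Frmd5, chr2:121574838-121574937: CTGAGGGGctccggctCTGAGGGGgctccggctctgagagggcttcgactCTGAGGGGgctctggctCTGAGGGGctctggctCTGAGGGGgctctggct

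The last 3 had no match. The region nearest to Leo1 had the highest lowest score of the regions in 3 libraries, and those nearest to Ccdc36 and Rad21l lay next to meiotic genes described further on.

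Leo1, chr9:75468495-75468594: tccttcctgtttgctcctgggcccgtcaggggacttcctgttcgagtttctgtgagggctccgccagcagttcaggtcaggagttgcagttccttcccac
Ccdc36, chr9:108431699-108431798: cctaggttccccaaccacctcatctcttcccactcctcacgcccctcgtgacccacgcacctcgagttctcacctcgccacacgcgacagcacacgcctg
Rad21l, chr2:151670229-151670328: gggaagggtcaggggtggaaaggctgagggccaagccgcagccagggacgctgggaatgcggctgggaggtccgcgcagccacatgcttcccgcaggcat

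Most distal regions were seen in a single library. Of the 1120, 837 had a summit in 1 library, 158 in 2 and 125 in all 3, so that 25.3% (Wilson 95% interval 22.8 to 27.9) were shared. At promoters 44.0% (42.7 to 45.3) of regions were shared, and of the 766 wild-type regions away from promoters 12.1% (10.02 to 14.6). The wild-type libraries had 696, 27 and 147 distal summits, so that most of their regions could not have been shared. The wild-type share is therefore not like for like with the others. These intervals cover counting error only, and since the calls chose the regions the shares are descriptions. FLAG/FLAG replicate 1 gave the most distal regions, of which 671 were in no other library, compared with 108 for replicate 2 and 58 for replicate 3. Of the distal regions in replicate 3, 73.4% were also in replicate 1 and 52.7% also in replicate 2, whereas 22.2% of those in replicate 1 were also in replicate 2. Distal summits made up 16.6% of the 5687 summits of replicate 1, 9.97% of the 3299 of replicate 2 and 12.6% of the 2035 of replicate 3. The 3 libraries were processed in different batches, and replicate 3 was prepared with a different kit, so that library, batch and kit cannot be told apart. Without replicate 1, 131 regions were shared, and without replicate 2, 187.

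**Figure D1:**
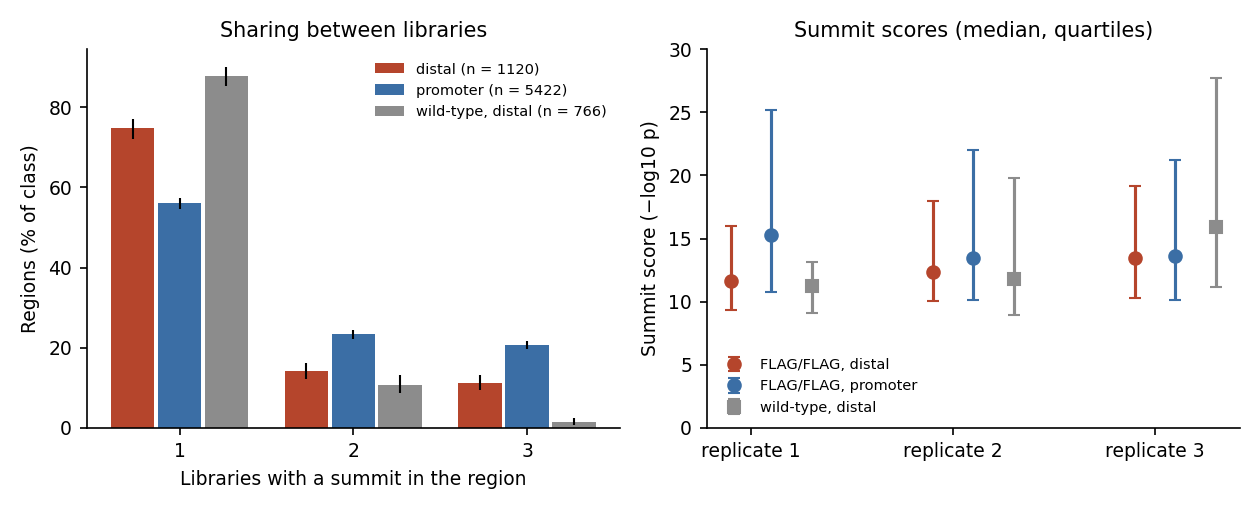
Left, percent of distal, promoter and wild-type distal regions with a summit in 1, 2 or 3 libraries, with Wilson 95% intervals as error bars. Right, median summit score (−log10 p, as called by the authors) with the lower and upper quartile in each library. Of distal regions 11.2% were in all 3 libraries, against 20.7% of promoter regions, and the distal and promoter medians lay closest together in replicate 3.

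The score of a summit is the −log10 p that the authors' peak caller gave it, and the calling threshold was a p of 1e-05. Scores were compared within a library. In replicate 1 the median score was 11.7 for distal and 15.3 for promoter summits, in replicate 2 it was 12.3 and 13.5, and in replicate 3 it was 13.5 and 13.6. The distal median was the lower in 3 of 3 libraries, by 1.64 on average, with p = 0.25 in an exact two-sided sign-flip permutation test, the smallest p that 3 libraries allow. Regions in all 3 libraries had the highest median scores in each library. In replicate 1 the median score was 10.8 for distal regions of that library alone, 14.9 for those in 2 libraries and 27.8 for those in 3, and in replicate 2 it was 10.04, 12.3 and 16.6. In replicate 3 the medians were 11.7, 11.8 and 16.8, so that regions in 1 and in 2 libraries were nearly alike there.

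The 10 distal regions with the highest lowest score over the 3 libraries lay near genes of several kinds. The first, at chr9:75468545, had scores of 81.1, 65.1 and 87.3 in replicates 1, 2 and 3. It lay 27009 bp from the TSS of Leo1, a subunit of the PAF1 transcription elongation complex, but 71 bp from the TSS of the pseudogene Gm7972. The region at chrX:140599414 had scores of 116, 60.3 and 58.9 and lay in an intron of Tsc22d3, a glucocorticoid-induced leucine zipper gene, 49 bp from the start of a RefSeq mRNA of that gene. The region at chr1:191224588 had scores of 66.8, 41.8 and 45.4 and lay 114 bp from the TSS of the noncoding RNA D730003I15Rik, with Atf3, a stress-induced transcription factor, as the nearest protein-coding gene at 6549 bp. These 3 stood at start sites outside the protein-coding GENCODE set.

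Others of the 10 were farther from any listed start. The region at chr11:95991367 had scores of 88.0, 71.8 and 44.7 and lay in an intron of Igf2bp1, an mRNA-binding protein gene, 14573 bp from its TSS. The region near Shf, an adaptor protein gene, at chr2:122348672, had scores of 72.0, 70.2 and 43.5 at 8548 bp from the TSS. The region at chr9:72133271 had scores of 68.9, 52.3 and 73.6 and lay 21400 bp upstream of Tcf12, which encodes an E-protein transcription factor. The region at chr2:34646551 had scores of 60.5, 36.5 and 61.8, 57835 bp from the TSS of Gapvd1, an endocytosis gene. The region at chr1:86528179, in an intron of the prothymosin gene Ptma, had scores of 87.5, 37.2 and 73.9 and lay 1372 bp from the nearest protein-coding TSS and 473 bp from a promoter summit.

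The remaining 2 of the 10 also stood at other listed starts. The region in an exon of Pura, a single-stranded nucleic acid binding protein gene, had scores of 63.8, 63.8 and 59.4 and lay 688 bp from a RefSeq mRNA start. The region nearest to C18orf63 had scores of 105, 41.7 and 65.1 and lay 100 bp from a TSS of a transcript of Cyb5a, the cytochrome b5 gene, that is not classed as protein coding. It was the 1 other region of the 10 with a motif match.

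At the 1 kb limit itself, summits on either side were a few bases apart in distance. The last promoter summits were at Rims2 (999 bp from the TSS, score 18.2, replicate 2) and Hmga1 (997 bp, score 90.6, replicate 1). The first distal ones were at Fgf11 (1001 bp, score 17.5, replicate 1) and Nbea (1002 bp, score 8.90, replicate 1). None of the 4 held the motif.

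Distal regions in 2 or 3 libraries lay closer to genes than those in 1 library, most of which were of replicate 1 alone. The median distance to the nearest protein-coding TSS was 30147 bp for regions in 1 library, 10815 bp for those in 2 and 10263 bp for those in 3. Of the 283 shared regions, 45 were between 1 and 2 kb from a TSS, and 39 were over 50 kb away. By position, 133 of the shared regions were intergenic, 63 were in introns and 45 in exons of protein-coding genes, and 42 were within noncoding genes only. Upstream of the nearest TSS lay 147 of the 283.

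Many shared regions stood at a start site of another kind. Of the 283, 102 were within 1 kb of the TSS of a GENCODE transcript that is not protein coding, and the nearest such TSS belonged to a noncoding gene or pseudogene at 74 of them, most often a lincRNA (29 regions). At the other 28 it was a transcript of a protein-coding gene. A RefSeq mRNA began within 1 kb of 43 shared regions, and at 14 of these the nearest was a known (NM) transcript, at the others a predicted one. This left 162 shared regions over 1 kb from every GENCODE TSS and every RefSeq mRNA start, 65 of them in all 3 libraries. With those 162 as the set, added as an alternative after the RefSeq distances were seen, the median distance to a protein-coding TSS was 11206 bp.

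Base composition differed with the number of libraries. The median GC content of the 200 bp around the centre was 50.5% for regions in 1 library, 64.5% for those in 2 and 66.5% for those in 3, against 71% at promoters and 43.0% at wild-type distal regions. CpG-rich windows (over 50% GC and an observed-to-expected CpG ratio above 0.6) made up 26.8%, 56.3% and 68.0% of distal regions in 1, 2 and 3 libraries, and 93.0% of promoter regions. Among regions in 1 library, those of replicate 1 stood apart, with a median GC content of 46% and 22.7% CpG-rich, against 61% and 48.1% for replicate 2 alone and 60.2% and 34.5% for replicate 3 alone. Repeats covered over 50% of the window in 21.6% of regions in 1 library, in 3.80% of those in 2 and in 0.8% of those in 3. In regions of replicate 1 alone that share was 26.4%, against 2.78% and 1.72% in regions of replicates 2 and 3 alone, and wild-type distal regions had 39.0%. The part that repeats have in the results of replicate 1 was not tested.

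**Figure D2:**
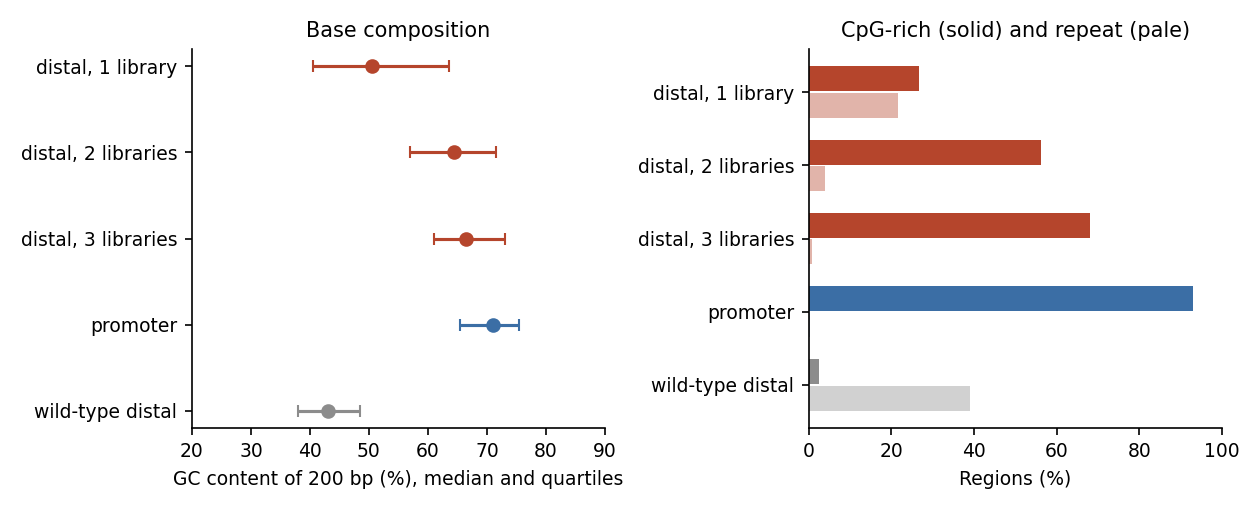
Left, GC content in percent of the 200 bp around the centre of distal regions in 1, 2 or 3 libraries, of promoter regions and of wild-type distal regions, as the median (point) and quartiles (bars). Right, percent of each class that was CpG-rich (solid) or over 50% repeat (pale). GC content and CpG richness of distal regions increased with the number of libraries, from a median of 50.5% GC to 66.5%, and repeats decreased from 21.6% to 0.8% of regions.

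The motif CNCCTCAG was searched on both strands within 50 bp of each summit. It was found at 7.40% of distal summits in replicate 1, at 13.7% in replicate 2 and at 17.1% in replicate 3. At promoter summits of the same libraries it was found at 10.6%, 14.2% and 16.0%, and of all 26474739 windows of 100 bp in the genome without N, 1.39% held it. The distal share minus the promoter share was -3.23 percentage points in replicate 1, -0.52 in replicate 2 and 1.11 in replicate 3, with a mean of -0.88 and p = 0.75 in an exact two-sided sign-flip permutation test over the 3 libraries. Distal and promoter summits were therefore not told apart by this motif, in a design that cannot give a p below 0.25, and the direction turned without replicate 1. Since the motif was found by the authors at promoter summits of these samples, it is independent of neither the promoter summits nor the libraries.

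Wild-type testes gave the background for the motif, without matching for base composition. Median GC content at distal summits was 54.5%, 64.5% and 63.5% in FLAG/FLAG replicates 1, 2 and 3. In wild-type replicates 1, 2 and 3 it was 43%, 49% and 47%. Distal wild-type summits held the motif at 1.44% of 696 in replicate 1, 3.70% of 27 in replicate 2 and 4.08% of 147 in replicate 3. The mean was 12.7% ± 4.93 (SD, n = 3) at FLAG/FLAG distal summits and 3.07% ± 1.43 (SD, n = 3) at wild-type distal summits, a difference of 9.66 percentage points. Every FLAG/FLAG library was above every wild-type library, with p = 0.10 in an exact two-sided permutation test, the smallest that 3 against 3 allow. The rule had removed FLAG/FLAG summits near wild-type summits. Those removed, at promoters or away from them, held the motif at 2.33%, 6.36% and 5.43% in replicates 1, 2 and 3. With near summits kept, the difference was 7.81 percentage points. The motif came from reads of these FLAG/FLAG samples, so it is not independent of this comparison. FLAG/FLAG and wild-type mice of the same number were processed as 1 batch, and within these pairs the difference was 5.96, 9.97 and 13.0 percentage points, with p = 0.25 in the exact sign-flip test of the pairing, the smallest that 3 pairs allow.

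Over all distal regions the motif was more frequent in those seen in more libraries. It was present in 4.30% (3.12 to 5.90) of regions in 1 library, in 15.8% (11.0 to 22.3) of those in 2 and in 20% (13.9 to 27.9) of those in 3. Promoter regions in 1, 2 and 3 libraries held it at 6.13%, 12.1% and 21.2%. Of the shared distal regions 50 of 283 held a match, which is 17.7%, while the windows 500 bp to either side held one in 5.30%. Those windows had a median GC content of 52.5%, against 66% at the shared regions, and were not matched for it. Of the 162 shared regions away from every listed start, 19.8% (14.4 to 26.6) had the motif, and of the 102 within 1 kb of another GENCODE TSS 12.7% (7.60 to 20.6). The regions in 1 library were mostly those of replicate 1, with the motif in 3.13% of 671, against 5.56% of 108 for replicate 2 alone and 15.5% of 58 for replicate 3 alone. Within replicate 3 the share did not increase step by step, at 15.5% of regions in that library alone, 13.7% of those in 2 libraries and 20% of those in 3.

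**Figure D3:**
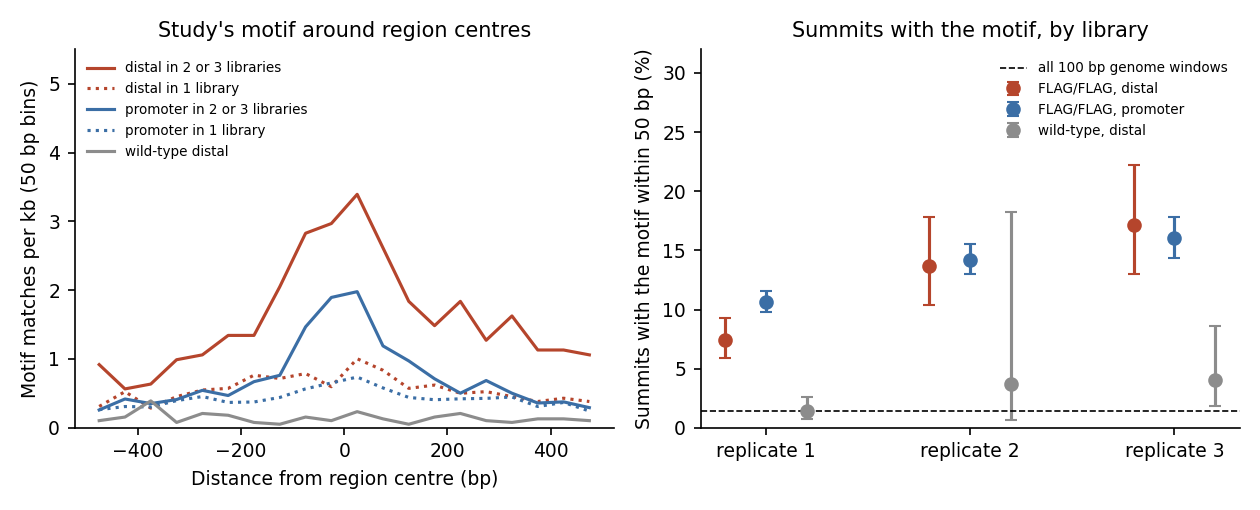
Left, matches to the study's motif per kb in 50 bp bins against distance from the region centre, for distal and promoter regions in 1 or in 2 or 3 libraries and for wild-type distal regions. Right, percent of summits with the motif within 50 bp in each library, with Wilson 95% intervals, and the share of all 100 bp genome windows as a dashed line. The density at shared distal regions was highest in the bin just after the centre, at 3.39 matches per kb, against 1.98 at shared promoter regions. Every match counts in the density, so that regions with several matches, such as the tandem repeats, weigh more in it than in a share of regions.

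Most shared regions with the motif had a single match (34 of 50), and 16 had more. The regions with 7 matches, nearest to Efnb2 and Fam92b, and that with 5, in an intron of Frmd5, are the tandem repeats printed above. The Efnb2 region had scores of 19.2 and 13.5 in replicates 1 and 2 and no summit in replicate 3. The Frmd5 region had scores of 43.2, 14.3 and 24.8 in the 3 replicates. These matches are of one repeated unit each and count as 1 region in the shares above.

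Other sequence elements were searched the same way within 50 bp of region centres, as descriptions. GCCNNNGGC, which AP-2 factors recognize, was in 11.3% of shared distal regions, 16.2% of promoter regions and 1.44% of wild-type distal regions, against 1.29% of genome windows. The E-box CACGTG, bound by basic helix-loop-helix factors, was in 5.30%, 2.97% and 0.65%, against 0.94%. AGGGGGC, part of the CTCF site, was in 10.6%, 8.34% and 0.26%, against 0.76%. The GC box GGGCGG was in 23.0%, 41.8% and 1.04%, against 0.98%. The promoter and wild-type sets here include regions in 1 library, so they are unlike the shared distal set. Over all 1120 distal regions the elements were in 7.05%, 2.68%, 6.88% and 15.4%, in the same order, each below its promoter share. In the windows 500 bp to either side of shared distal regions these elements were in 6.18%, 1.59%, 3.53% and 8.48%, in the order above. They were thus also less frequent there than at the regions. The elements GCCNNNGGC and GGGCGG can overlap each other in GC-rich DNA, and the GC content of the classes differed as given above.

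Some genes had several shared regions. Tmem267 had 5 in an intron within 4926 bp, all of them seen in replicates 1 and 2 and none in replicate 3, in sequence that was 43.0% to 100% repeat. Tchh, which encodes the hair follicle protein trichohyalin, had 4 within 3108 bp of its exon sequence, with scores of 35.1, 23.3 and 20.99 at the highest. Ptma had 4 over 40569 bp and Kcnrg, a potassium channel regulator gene, 3 over 33878 bp. The Kcnrg regions included summits 45 and 230 bp from TSSs of the noncoding gene Dleu2.

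RNA-seq was then used to describe the genes nearest to shared distal regions. Stra8, the check of the groups, was at 18.1, 23.0 and 5.20 TPM, a level scaled to transcript length and library size, in the Stra8-deficient libraries, at 318 and 238 in the low-STRA8 and at 1107 and 1258 in the high-STRA8 libraries. Its order matched the labels. Fold changes and adjusted p-values below come from edgeR over 16852 genes with over 1 TPM in at least 1 library, and the libraries held 25049625 to 30015072 estimated counts. Of markers of other cells, the 5 Sertoli genes summed to 94.0 to 130 TPM in Stra8-deficient, 43.3 to 203 in low-STRA8 and 144 to 152 in high-STRA8 libraries, and the 5 macrophage and blood genes to 5.55 to 13.1, 23.7 to 27.9 and 1.09 to 3.53. The 5 Leydig genes summed to 9.61 to 12.6 TPM in Stra8-deficient, 3.48 to 19.0 in low-STRA8 and 3.75 to 5.51 in high-STRA8 libraries, and the 5 peritubular and endothelial genes to 24.4 to 42.0, 11.8 to 35.7 and 7.72 to 21.9. Both sums were thus lower in every high-STRA8 than in every Stra8-deficient library. So was the macrophage and blood sum, while the Sertoli sum was higher. The genes given as lower further on had the same direction, and the part of these cells in those results was not tested. The 4 markers of undifferentiated spermatogonia summed to 18.3 to 21.8 TPM in Stra8-deficient libraries and to 5.29 to 7.70 in the others. This sum was thus lower in every low-STRA8 and high-STRA8 library, as were Dlk1 and Bahcc1 further on, and its part in those results was not tested. The 5 genes of later germ cells summed to at most 1.89 TPM, with Acrv1 and Acr below 0.1 TPM in every library. The 6 genes of cells entering meiosis summed to 2327 to 3632 TPM in Stra8-deficient, 2708 to 3279 in low-STRA8 and 6119 to 6524 in high-STRA8 libraries. In sorted bulk cells, fewer cells of a type and less RNA per cell cannot be told apart.

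The 283 shared regions had 256 nearest protein-coding genes, of which 191 passed the filter on low values. In high-STRA8 against Stra8-deficient cells 43 of these 191 were higher (22.5%) and 33 lower (17.3%), where the background over 12520 protein-coding genes tested was 16.8% higher and 17% lower. The balance turned to 38 higher and 40 lower with limma on log2(TPM + 1), and to 40 and 43 with no filter on low values. Against low-STRA8 cells 54 were higher (28.3%) and 17 lower (8.90%), where the background was 18.5% and 18.1%. The high-STRA8 libraries are common to these comparisons. The counts rest on the 2 high-STRA8 libraries: without replicate 1 the numbers higher and lower were 22 and 8 against Stra8-deficient cells and 37 and 4 against low-STRA8 cells, and without replicate 2 they were 21 and 11, and 29 and 2. Against low-STRA8 cells the higher share of the calls was 76.1%, and it was 61.8% with no filter on low values and 87.5% with limma, which moved the median change of all genes by -0.14 and 0.14 on the log2 scale.

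The nearest genes were then split by whether they also had a FLAG/FLAG summit at their own promoter. Against Stra8-deficient cells, 32.1% of all tested protein-coding genes with a promoter summit were higher and 9.06% lower, and of those without one 6.92% and 22.2%. Among nearest genes with their own promoter summit, 23 of 72 were higher (31.9%) and 8 lower (11.1%), close to that background. Among nearest genes without one, 20 of 119 were higher (16.8%, Wilson interval 11.2 to 24.5) and 25 lower (21.01%, 14.7 to 29.2). Against low-STRA8 cells the backgrounds were 30.5% higher and 11.7% lower with a promoter summit, and 10.7% and 22.2% without. The nearest genes gave 30 of 72 higher and 6 lower with a promoter summit, and 24 of 119 higher (20.2%) and 11 lower (9.24%) without. The intervals treat genes as independent, and whether the nearest genes differ from other genes was not tested.

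The same counts were taken for the regions away from every listed start. Of their nearest genes without a promoter summit 62 were tested, and against Stra8-deficient cells 9 were higher (14.5%) and 15 lower (24.2%). Against low-STRA8 cells 11 were higher and 7 lower. Genes nearest only to regions of 1 library, without a promoter summit, were higher at 18 of 237 (7.59%) and lower at 58 (24.5%) against Stra8-deficient cells, near the background of genes without a promoter summit.

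**Figure D4:**
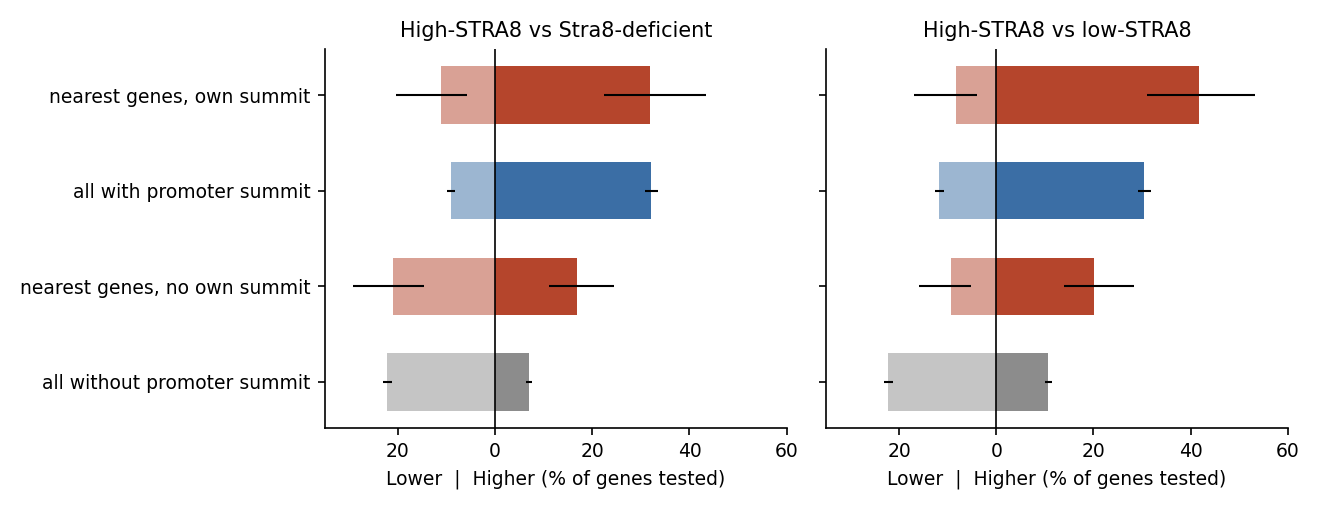
Percent of genes tested that were lower (pale, to the left) or higher (solid, to the right) in high-STRA8 cells, against Stra8-deficient cells (left panel) and low-STRA8 cells (right panel), at an adjusted p under 0.05. Bars are the nearest genes of shared distal regions and all protein-coding genes, each with and without a FLAG/FLAG promoter summit, and error bars are Wilson 95% intervals over genes. Without a promoter summit, 16.8% of nearest genes and 6.92% of all genes were higher than in Stra8-deficient cells.

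Among nearest genes without a promoter summit, the 5 largest increases of genes at or above 5 TPM included 2 genes of meiotic chromosome proteins. Ccdc36 (also named Iho1) is required for meiotic double-strand breaks. It was at 18.1, 19.3 and 15.4 TPM in Stra8-deficient, 41.6 and 33.2 in low-STRA8 and 93.5 and 99.2 in high-STRA8 libraries, and the 3 groups did not overlap. Its log2 fold change was 2.52 ± 0.12 (SE) against Stra8-deficient cells (adjusted p = 4.71e-05) and 1.23 ± 0.13 against low-STRA8 cells (adjusted p = 0.00128). The region, whose sequence is printed above, had scores of 22.7, 29.0 and 21.4 and lay 3265 bp upstream of the GENCODE protein-coding TSS but 77 bp from the start of a RefSeq mRNA of Iho1.

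Rad21l encodes a meiotic cohesin subunit. It was at 50.4, 48.5 and 39.8 TPM in Stra8-deficient, 90.2 and 67.8 in low-STRA8 and 192 and 209 in high-STRA8 libraries, again without overlap. Its log2 fold change was 2.17 ± 0.13 (adjusted p = 7.55e-05) against Stra8-deficient and 1.19 ± 0.15 (adjusted p = 0.00175) against low-STRA8 cells. Its region had scores of 44.9 and 20.1 in replicates 2 and 3 and no summit in replicate 1, and lay 1746 bp from the GENCODE TSS and 343 bp from a RefSeq mRNA start of the gene. Both regions were thus distal by the annotation used and next to a promoter by another.

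The other 3 of the 5 largest increases were outside the meiotic lists. Tchh was at 1.35, 1.65 and 1.176 TPM in Stra8-deficient, 1.97 and 1.62 in low-STRA8 and 11.3 and 12.4 in high-STRA8 libraries, giving a log2 fold change of 3.17 ± 0.18 (adjusted p = 7.38e-05) against Stra8-deficient cells and 2.61 ± 0.21 (adjusted p = 0.000826) against low-STRA8 cells. Its high-STRA8 libraries stood apart from all others. Efnb2, the ephrin-B2 ligand gene, was at 2.98, 4.07 and 2.37 TPM, 6.15 and 2.73 TPM, and 20.6 and 19.0 TPM in the same order, with log2 fold changes of 2.73 ± 0.32 (adjusted p = 0.000928) and 2.04 ± 0.36 (adjusted p = 0.00597). The tandem-repeat region that made it a nearest gene was 258824 bp from its TSS, within the noncoding genes Gm31135 and Gm31343.

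H2-Ab1, an MHC class II gene, was at 0.25, 0.74 and 2.64 TPM in Stra8-deficient, 3.29 and 1.58 in low-STRA8 and 12.6 and 14.8 in high-STRA8 libraries. It was higher than in Stra8-deficient cells by a log2 fold change of 3.53 ± 0.79 (adjusted p = 0.0161), and its adjusted p was 0.0613 without Stra8-deficient replicate 2, and 0.0616 and 0.0848 without high-STRA8 replicate 1 or 2. Against low-STRA8 cells it was 2.35 ± 0.86 (adjusted p = 0.0797), with an adjusted p of 0.0137 under DESeq2, 0.0207 under limma, 0.0413 with protein-coding genes only and 0.0322 with the replicate block. MHC class II is a product of antigen-presenting cells. The summed macrophage and blood markers given above were lowest in the high-STRA8 libraries, and which cells gave the H2-Ab1 RNA was not tested. The H2-Ab1 region, in an exon 2052 bp from the TSS, had scores of 39.1, 33.7 and 23.2.

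The 5 largest decreases were Dlk1, Rab6b, Snx10, Ppp1r1b and Bahcc1. Rab6b, a Golgi trafficking GTPase gene, was at 39.0, 34.4 and 41.8 TPM in Stra8-deficient, 26.3 and 33.9 in low-STRA8 and 14.0 and 12.4 in high-STRA8 libraries, and changed on the log2 scale by -1.66 ± 0.13 (adjusted p = 0.000122) against Stra8-deficient cells. Snx10, a sorting nexin gene, was at 57.7, 36.9 and 46.8 TPM, 31.8 and 34.9 TPM, and 17.5 and 16.4 TPM, with a change of -1.32 ± 0.24 (adjusted p = 0.00459). Ppp1r1b, the gene for the phosphatase inhibitor DARPP-32, was at 73.2, 95.7 and 81.4 TPM, 50.5 and 57.8 TPM, and 30.8 and 33.2 TPM, with a change of -1.29 ± 0.17 (adjusted p = 0.00125). In these 3 genes the groups did not overlap and the low-STRA8 libraries lay between the others. Against low-STRA8 cells their log2 changes were -1.22 ± 0.14 (adjusted p = 0.0014), -1.04 ± 0.25 (adjusted p = 0.0162) and -0.90 ± 0.19 (adjusted p = 0.00867). For Snx10 that adjusted p was 0.0923 and 0.0845 without high-STRA8 replicate 1 or 2 and 0.0739 without low-STRA8 replicate 2, and for Ppp1r1b 0.0679 without high-STRA8 replicate 1.

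Dlk1 and Bahcc1 had another order. Dlk1, an imprinted growth regulator gene, was at 9.60, 14.3 and 15.5 TPM in Stra8-deficient, 4.64 and 3.02 in low-STRA8 and 3.21 and 4.56 in high-STRA8 libraries. Its change was -1.70 ± 0.33 (adjusted p = 0.00605) against Stra8-deficient and -0.07 ± 0.35 (adjusted p = 0.91) against low-STRA8 cells, and without high-STRA8 replicate 1 the first adjusted p was 0.0606. Bahcc1, a chromatin protein gene, was at 31.9, 33.2 and 21.9 TPM, 4.67 and 7.67 TPM, and 11.3 and 11.8 TPM, with changes of -1.25 ± 0.27 (adjusted p = 0.0135) and 0.75 ± 0.29 (adjusted p = 0.0871). Its first adjusted p was 0.0901 and 0.0866 without high-STRA8 replicate 1 or 2, and its second was 0.0144 under DESeq2, 0.0498 under limma, 0.0412 with protein-coding genes only and 0.048 with the replicate block. In both genes both Stra8 +/- groups were below the Stra8-deficient libraries. The regions of the 5 genes were each in 2 libraries. That of Bahcc1 was 41 bp from the TSS of the noncoding RNA 2900052L18Rik, and only that of Ppp1r1b among the 5 held the motif.

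**Figure D5:**
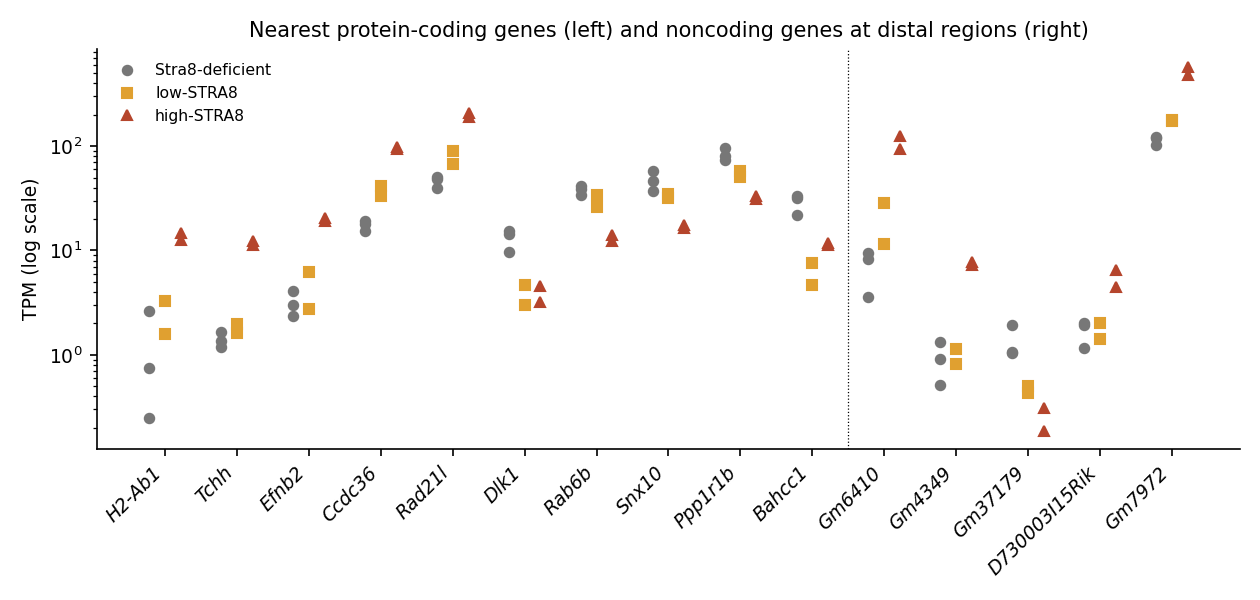
TPM on a log scale in each of the 7 RNA-seq libraries (3 Stra8-deficient, 2 low-STRA8, 2 high-STRA8, 1 point per library) for the 10 named nearest protein-coding genes on the left of the dotted line and the 5 named noncoding genes with a TSS within 1 kb of a distal region on the right. For Ccdc36, Rad21l, Rab6b, Snx10 and Ppp1r1b the low-STRA8 points lie between the others, whereas for Bahcc1 they lie lowest.

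Of 12520 protein-coding genes tested, 191 were nearest to a shared distal region, and a few genes of the meiotic and cell cycle lists were among them. Whether the lists differ from other genes in this was not tested. Against Stra8-deficient cells, 11 of 15 meiotic cohesin and synaptonemal complex genes tested were higher and 1 was lower in high-STRA8 cells, 11 had a FLAG/FLAG promoter summit, and Rad21l alone was nearest to a shared region. Over all protein-coding genes tested 16.8% were higher and 17% lower, as above, and 4924 of 12520 had a promoter summit. Of 29 double-strand break and recombination genes, 21 were higher and 2 lower, 24 had a promoter summit, and Ccdc36 was among those nearest to a shared region. Of 7 telomere attachment genes and of 41 replication genes, 7 and 35 were higher and none was nearest to a shared region.

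The other lists, to be read against the same 16.8% and 17%, gave single genes. Of 21 regulators of meiotic prophase and germline transcription factors, 8 were higher and 2 lower, and Figla, a germline transcription factor, was nearest to a shared region with scores of 17.96, 10.1 and 12.2, at 13497 bp and 686 bp from the lincRNA 4930553P18Rik. Its level was 53.2, 74.8 and 54.0 TPM in Stra8-deficient, 49.6 and 41.5 in low-STRA8 and 57.2 and 54.0 in high-STRA8 libraries, with overlap, a log2 difference of -0.12 ± 0.19 (adjusted p = 0.668). Of 26 genes that act at G1-S, 11 were higher and 3 lower, and Cdkn1a, a cyclin-dependent kinase inhibitor gene, was nearest to a region in its intron with scores of 9.17 and 9.06. Its level was 4.82, 6.38 and 6.42 TPM in Stra8-deficient, 6.99 and 6.20 in low-STRA8 and 8.26 and 8.96 in high-STRA8 libraries, a log2 difference of 0.65 ± 0.21 (adjusted p = 0.0528) against Stra8-deficient cells, and with DESeq2 the adjusted p was 0.0412. Of 25 G2-M genes 11 were higher and 7 lower, of 11 genes of undifferentiated spermatogonia 4 were lower and of 9 of differentiating spermatogonia 1 was higher and 3 lower, and none of these was nearest to a shared region.

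Among the protein-coding genes nearest to the 10 strongest regions no change against Stra8-deficient cells was over 0.92 in size on the log2 scale. Ptma was at 4254, 5747 and 4873 TPM in Stra8-deficient, 5400 and 4544 in low-STRA8 and 7497 and 6754 in high-STRA8 libraries, and the log2 fold change was 0.92 ± 0.13 (adjusted p = 0.00126) against Stra8-deficient cells. Tsc22d3, Tcf12, Gapvd1 and Pura were higher by 0.46, 0.47, 0.49 and 0.66 on the log2 scale with adjusted p-values of 0.00642, 0.00763, 0.0135 and 0.0108, which were 0.0874, 0.0685, 0.0618 and 0.0661 without high-STRA8 replicate 1 and 0.053, 0.0822, 0.133 and 0.0847 without replicate 2. Igf2bp1 fell by 0.76 (adjusted p = 0.023), and was at 0.0789 and 0.156 without high-STRA8 replicate 1 or 2 and at 0.0644 and 0.0649 without Stra8-deficient replicate 1 or 3. For Leo1, Shf and Atf3 the adjusted p was 0.202, 0.948 and 0.443. C18orf63 was not among the genes tested.

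Noncoding genes with a TSS within 1 kb of a distal region were higher more often than lower. Of 184 such genes 79 passed the filter on low values. Against Stra8-deficient cells, 21 of these (26.6%) were higher and 3 (3.80%) lower, where the background over 4332 noncoding genes and pseudogenes tested was 5.45% higher and 1.8% lower. At regions in 2 or 3 libraries 16 of 46 were higher and 2 lower, and at regions in 1 library 5 of 33 were higher and 1 lower. Without high-STRA8 replicate 1 or 2 the 24 calls became 13 and 11. Some of these genes were near the filter level, and pseudogenes can share reads with near-identical copies, so that their single values are uncertain. Some of the genes called higher lay at the same region, as did Gm16270 and Gm16280, and 1700048O20Rik and Gm49343. The calls are therefore not all of separate regions.

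Gm7972, the pseudogene 71 bp from the strongest distal region, was at 123, 120 and 102 TPM in Stra8-deficient, 179 and 175 in low-STRA8 and 479 and 569 in high-STRA8 libraries. Its log2 fold change was 2.22 ± 0.10 (adjusted p = 4.71e-05) against Stra8-deficient cells and 1.39 ± 0.11 (adjusted p = 0.000826) against low-STRA8 cells, with no overlap between the 3 groups. Leo1, the nearest protein-coding gene of the same region, was at 14.4, 10.4 and 16.1 TPM in Stra8-deficient, 12.4 and 9.94 in low-STRA8 and 9.77 and 9.64 in high-STRA8 libraries. D730003I15Rik, at the region near Atf3, was at 2.02, 1.15 and 1.92 TPM, 1.40 and 2.01 TPM, and 4.49 and 6.55 TPM, and rose on the log2 scale by 2.23 ± 0.31 (adjusted p = 0.00146) against Stra8-deficient cells. At both regions the transcript that began beside the summit rose, while the protein-coding gene assigned by distance did not pass the test. Both noncoding genes were named for the size of their fold change among genes past the threshold. At the regions near Bahcc1 and Kcnrg, 2900052L18Rik and Dleu2 did not pass against Stra8-deficient cells. Their log2 changes were 0.57 ± 0.43 (adjusted p = 0.376) and 0.07 ± 0.36 (adjusted p = 0.916). Against low-STRA8 cells 2900052L18Rik was higher by 2.03 ± 0.52 (adjusted p = 0.0196).

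Of the noncoding genes past the threshold, the lincRNAs Gm6410 and Gm4349 had the largest increases. Gm6410 was at 8.27, 9.49 and 3.60 TPM in Stra8-deficient, 28.5 and 11.4 in low-STRA8 and 125 and 94.5 in high-STRA8 libraries, a log2 fold change of 3.98 ± 0.46 (adjusted p = 0.00127), and its TSS was 765 bp from a region in 3 libraries. Gm4349 was at 0.91, 1.33 and 0.51 TPM, 1.15 and 0.81 TPM, and 7.75 and 7.26 TPM, a change of 3.08 ± 0.37 (adjusted p = 0.000757), with its TSS 201 bp from a region in 2 libraries. Gm37179 was the named gene that fell, from 1.91, 1.03 and 1.07 TPM to 0.19 and 0.31, by -2.35 ± 0.68 (adjusted p = 0.0335). With DESeq2 its adjusted p was 0.0969, and it lay between 0.0523 and 0.194 when any 1 of the Stra8-deficient or high-STRA8 libraries was left out.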

How the data were processed

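ChIP-seq summits were deposited per library as BED files whose score is the −log10 p that the authors obtained with MACS2 2.1.1.20160309 against the input of the same mouse, after alignment to mm10 with Bowtie 1.2.0, and from which blacklisted peaks had been removed. Distances were taken to protein-coding TSSs of GENCODE M21 on mm10, which is another release than the authors used, and sequence was read from RefSeq GRCm38.p6. Members and gene lists were chosen with earlier results of these data known.

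RNA levels were deposited as kallisto 0.43.0 estimated counts and TPM per transcript by the authors, from stranded poly(A) libraries. The strand setting of kallisto is not given in the sources used here, so that reads of overlapping genes may not be told apart. Of 75737 transcripts 75517 matched a gene, and their estimated counts were rounded after summing by gene. Genes over 1 TPM in at least 1 of 7 libraries were fitted in 1 model of 3 groups with edgeR 4.0.16 (TMM, robust quasi-likelihood F test, Benjamini-Hochberg over 16852 genes, threshold 0.05), under R 4.3.3. DESeq2 1.42.0 and limma 3.58.1 were alternatives. Median scores and motif shares per library were compared with exact permutation tests in SciPy 1.17.1. The code was tested on simulated data.

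Regions named are the 10 with the highest lowest score among those in 3 libraries, and the 2 on each side of the 1 kb limit. Genes named are Stra8, the 5 largest increases and 5 largest decreases among nearest genes of shared regions without a promoter summit (group mean of 5 TPM or more where higher), the 5 noncoding genes with the largest fold change among those past the threshold, and list genes nearest to shared regions, of which 1 is not reported here. Regions with most motif matches and genes with several regions were named after their values were seen. ChIP libraries of the same number were paired by the study's batches. Same-numbered RNA libraries were not treated as pairs, and the replicate number was a block in an alternative. Normalized count tables of the authors were not used.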

Additional observations from a re-analysis of the deposited data

How the results depend on the processing

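The score difference between distal and promoter summits and the motif difference between FLAG/FLAG and wild-type distal summits kept their direction under all alternatives run (-2.39 to -0.64, and 7.46 to 13.9 percentage points), in designs too small to pass a threshold. Of the 283 shared regions 181 were left when TSSs of every biotype were used, and 162 when RefSeq mRNA starts were added, an alternative chosen after seeing the data. Leaving out 1 library gave 131 to 295. The distal minus promoter motif share turned to 0.38 with TSSs of every biotype, and ranged from -1.87 to 0.30 with 1 library left out, positive without FLAG/FLAG replicate 1. For the 43 nearest genes higher than in Stra8-deficient cells and the 33 lower, the added alternative gave 20 and 18, TSSs of every biotype gave 20 lower, and leaving out 1 library gave 21 to 47 and 8 to 42. For the 54 higher and 17 lower against low-STRA8 cells, the added alternative gave 27 and 9, and leaving out 1 library gave 27 to 61 and 2 to 24. The 17 became 10 with TSSs of every biotype, 9 with limma and 29 with no filter on low values. The 24 noncoding calls ranged from 11 to 28 with 1 library left out. The wider TSS sets, and leaving out a FLAG/FLAG library, leave fewer shared regions by construction. For the other alternatives the cause was not tested.

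Same-numbered RNA libraries correlated at -0.11 to -0.0024 in their deviations from group means. In a group of 2 libraries the deviations mirror each other, so these correlations cannot decide whether the numbers mark pairs. With the replicate number as a block, 30 and 25 nearest genes were higher and lower than in Stra8-deficient cells and 52 and 11 than in low-STRA8 cells, and 15 noncoding genes were called. In the same-number pairing of the ChIP libraries the motif difference of 9.66 percentage points is the same by construction. ChIP depth is unknown, so that a region seen in 1 library may be below detection in the others.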
